A study of Mus musculus with 4 samples.

Results

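The 9 genes described here were Nr4a1, Nr4a2, Nr4a3, Egr1, Egr2, Fos, Jun, Dusp1 and Rgs2, taken by symbol as a fixed set of immediate early and Nr4a genes. They were 9 of 31054 features in each of 4 single-cell libraries of mouse mammary tumours, and all 9 had UMIs (unique molecular identifiers, 1 per captured transcript) in every library. Tumour cells of 2 lines had been injected into the mammary gland of female mice, T11-Apobec into the strain labelled Balbc and KPB25Luv into FVB/NJ. The treated T11-Apobec and treated KPB25Luv tumours came from mice given anti-PD1 at 10 mg/kg and anti-CTLA4 at 100 ug, antibodies against inhibitory receptors of T cells, given biweekly, begun at a tumour diameter of 5 mm and collected after 7 days. The untreated T11-Apobec and untreated KPB25Luv tumours received no therapy. Tumours were dissociated with an enzyme kit and captured with 10x Genomics 3' v2 chemistry, with 1 library per group, so no difference below has a replicate check. All intervals are 95% intervals that cover counting error only, and within each line neither mouse nor capture can be told apart from treatment.

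Immediate early genes are transcribed within minutes of a stimulus from factors that are already present in the cell. In T and B cells, calcium and MAP kinase signals from the antigen receptor induce the Nr4a nuclear receptors and the Egr zinc finger factors. Members of the set, Fos, Jun and Dusp1 among them, also respond to growth factors, cytokines and stress, including enzymatic tissue dissociation. Nr4a receptors are also known for restraining T cells under lasting antigen exposure.

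The upstream promoter sequence of 6 of the genes is shown, from RefSeq on GRCm38.p6. Each run is the 250 bases before the single start site listed, 5′ to 3′ on the gene's strand. Nr4a1 is at chr15:101266596-101266845 (plus strand), Nr4a2 at chr2:57124004-57124253 (minus) and Nr4a3 at chr4:48045055-48045304 (plus). Fos is at chr12:85473640-85473889 (plus), Dusp1 at chr17:26508473-26508722 (minus) and Jun at chr4:95052223-95052472 (minus). Capitals mark matches on either strand to the core of the cyclic AMP response element (TGACG), the full element (TGACGTCA, which contains the core), the AP-1 site (TGANTCA), the EGR site (GCGNGGGCG) and the serum response element (CArG box), and matches on the gene's strand to the TATA box (TATAAA).
Nr4a1: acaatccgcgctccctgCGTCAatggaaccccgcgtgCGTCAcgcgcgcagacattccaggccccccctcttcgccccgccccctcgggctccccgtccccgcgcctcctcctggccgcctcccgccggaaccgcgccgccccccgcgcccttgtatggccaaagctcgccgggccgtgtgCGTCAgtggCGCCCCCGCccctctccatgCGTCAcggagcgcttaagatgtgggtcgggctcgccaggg
Nr4a2: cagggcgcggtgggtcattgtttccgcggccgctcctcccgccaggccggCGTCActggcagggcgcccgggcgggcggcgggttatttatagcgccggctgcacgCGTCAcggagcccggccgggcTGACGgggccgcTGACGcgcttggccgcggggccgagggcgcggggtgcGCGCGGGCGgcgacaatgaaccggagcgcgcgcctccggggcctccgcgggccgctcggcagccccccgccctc
Nr4a3: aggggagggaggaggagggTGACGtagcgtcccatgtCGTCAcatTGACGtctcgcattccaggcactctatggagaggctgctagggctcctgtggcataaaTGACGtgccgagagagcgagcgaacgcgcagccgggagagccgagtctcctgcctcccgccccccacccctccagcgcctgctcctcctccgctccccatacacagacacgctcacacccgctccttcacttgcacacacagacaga
Fos: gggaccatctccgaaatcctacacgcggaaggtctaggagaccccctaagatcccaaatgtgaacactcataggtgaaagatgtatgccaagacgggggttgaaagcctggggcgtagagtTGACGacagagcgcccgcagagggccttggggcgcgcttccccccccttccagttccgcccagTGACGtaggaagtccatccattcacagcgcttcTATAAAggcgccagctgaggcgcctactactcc
Dusp1: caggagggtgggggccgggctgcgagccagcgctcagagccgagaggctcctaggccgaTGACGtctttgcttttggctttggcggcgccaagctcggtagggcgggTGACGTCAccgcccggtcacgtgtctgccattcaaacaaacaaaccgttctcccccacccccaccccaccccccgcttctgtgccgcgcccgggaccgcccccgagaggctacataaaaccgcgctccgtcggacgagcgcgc
Jun: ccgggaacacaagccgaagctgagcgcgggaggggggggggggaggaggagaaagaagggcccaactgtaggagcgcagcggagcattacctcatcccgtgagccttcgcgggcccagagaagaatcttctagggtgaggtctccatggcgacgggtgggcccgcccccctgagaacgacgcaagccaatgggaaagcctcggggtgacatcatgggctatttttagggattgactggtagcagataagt

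The core TGACG was matched at 4 places in each of the 3 Nr4a promoters, at 2 places in Fos, at 3 in Dusp1 (both strands of the full element and 1 other) at 2 in Rgs2, at 2 in 3 of the 5 listed starts of Egr2, and at none in the Jun window. Across all 32851 promoter windows of this length, 17.8% held at least 1 core. The full element was found in Dusp1, as in 1.55% of all windows, and the EGR site in Nr4a1, Nr4a2 and Rgs2, as in 4.70% of all windows. The CArG box was found at 4 of the 5 listed starts of Egr2 (1.47% of all windows) and the TATA box in Fos (7.59%), while the AP-1 site (6.75%) was found in none of the windows of 8 genes. RefSeq promoters matched 8 of the 9 genes, and Egr1 is named only. These matches describe letters in the windows and were not tied to any level below.

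The genes lie on 8 chromosomes of GRCm38, per the GENCODE vM21 annotation matched by Ensembl identifier: Nr4a1 at chr15:101254269-101274795 (ENSMUSG00000023034), Nr4a2 at chr2:57106830-57124003 (ENSMUSG00000026826) and Nr4a3 at chr4:48045153-48086447 (ENSMUSG00000028341). Egr1 lies at chr18:34859823-34864984 (ENSMUSG00000038418) and Egr2 at chr10:67535475-67542188 (ENSMUSG00000037868). Fos lies at chr12:85473890-85477273 (ENSMUSG00000021250) and Jun at chr4:95049034-95052222 (ENSMUSG00000052684). Dusp1 lies at chr17:26505590-26562128 (ENSMUSG00000024190) and Rgs2 at chr1:143999338-144004161 (ENSMUSG00000026360). All 9 are protein-coding genes.

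The libraries held 30369476 to 98475778 UMIs, and 5273 to 10321 cells were kept in each. Cells were put in classes by raw UMIs of marker genes. Cells that reached the threshold of a class without the required excess over other classes (156 to 479 per library) were left out. T cells numbered 3078 and 414 in treated and untreated T11-Apobec and 4047 and 1194 in treated and untreated KPB25Luv. Median UMIs per T cell were 3624 and 1593.5 in treated and untreated T11-Apobec, against 4026 and 3411 in treated and untreated KPB25Luv. The libraries shared 34 to 125 barcodes in pairs, out of at least 5509 barcodes each. Levels below are class sums given as UMIs per 1000000 UMIs of the class (CPM). In such a sum a higher level per cell and a larger share of high cells cannot be told apart.

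The MAP kinase targets Fos, Dusp1 and Egr1 were highest in neutrophils in all 4 libraries, and T cells had the lowest Jun level of the ranked classes in all 4. Fos, the partner of Jun in the AP-1 transcription factor, stood in neutrophils at 1548 and 2595 CPM in treated and untreated T11-Apobec and at 3865 and 2565 CPM in treated and untreated KPB25Luv. Macrophages and monocytes came next among immune classes, with Fos at 377 and 997 CPM in treated and untreated T11-Apobec and 1081 and 787 CPM in treated and untreated KPB25Luv. T cells held Fos at 74.0 and 120 CPM in treated and untreated T11-Apobec and at 249 and 134 CPM in treated and untreated KPB25Luv. In the treated T11-Apobec library T cells had the lowest Fos level of the 8 classes ranked, and their interval overlapped none but that of NK cells. In untreated T11-Apobec the intervals of T and NK cells overlapped at the bottom of the order, and in untreated KPB25Luv epithelial cells stood below T cells, at 102 CPM.

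Dusp1, which encodes a phosphatase that switches off MAP kinases, was at 2386 and 2726 CPM in neutrophils of treated and untreated T11-Apobec and at 3387 and 1964 CPM in those of treated and untreated KPB25Luv. In T cells it was at 73.5 and 319 CPM in treated and untreated T11-Apobec and at 184 and 109 CPM in treated and untreated KPB25Luv. Neutrophils therefore stood above every other ranked class for Dusp1 in each library, with intervals that did not overlap the next. Epithelial cells of T11-Apobec combined high Fos (564 and 585 CPM, treated and untreated) and Jun (464 and 413 CPM) with Dusp1 at 28.7 and 57.0 CPM, the lowest values of the classes ranked in those libraries. These epithelial classes held 59 and 73 cells.

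Nr4a3 was a low transcript in every class with at least 50 cells. Outside T, NK and B cells, the classed cells of treated KPB25Luv held 14 Nr4a3 UMIs, of which macrophages and monocytes held 1. The rest lay in classes too small to be ranked, whose levels are not given. In T cells it was at 3.42 and 3.79 CPM in treated and untreated T11-Apobec and at 7.03 and 3.96 CPM in treated and untreated KPB25Luv. In tumour/mesenchymal cells of treated T11-Apobec 1 UMI was seen among 716 cells (0.0537 CPM), and those of untreated T11-Apobec were at 0.254 CPM. Macrophages and monocytes stood between, at 0.935 and 1.36 CPM in treated and untreated T11-Apobec and at 1.57 and 1.85 CPM in treated and untreated KPB25Luv. Neutrophils of untreated T11-Apobec were at 9.39 CPM, from 2 UMIs. NK cells ranked above T cells in both treated libraries, at 10.6 CPM in T11-Apobec (4.24 to 21.7, from 7 UMIs) and 14.2 CPM in KPB25Luv (1.72 to 51.3). Both of these intervals overlapped those of T cells. In untreated T11-Apobec NK cells were at 2.62 CPM, from 2 UMIs. Nr4a2 differed between lymphocyte types: it was at 25.9 and 82.0 CPM in T cells but at 0.691 and 7.65 CPM in B cells of treated and untreated T11-Apobec, the B cell values resting on 1 UMI each. In treated KPB25Luv Nr4a2 was at 23.7 CPM in T cells and 7.37 CPM in B cells (log2 ratio 1.64, interval 0.97 to 2.50). Nr4a2 was called higher in T than in B cells in 3 of 4 libraries, and Fos and Jun were called lower in 4 of 4. The shares of all features called higher in T cells were 18.4% and 10.1% in treated and untreated T11-Apobec and 18% and 8.53% in treated and untreated KPB25Luv, and those called lower were 12.9%, 6.39%, 11.4% and 8.39%.

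**Figure D1:**
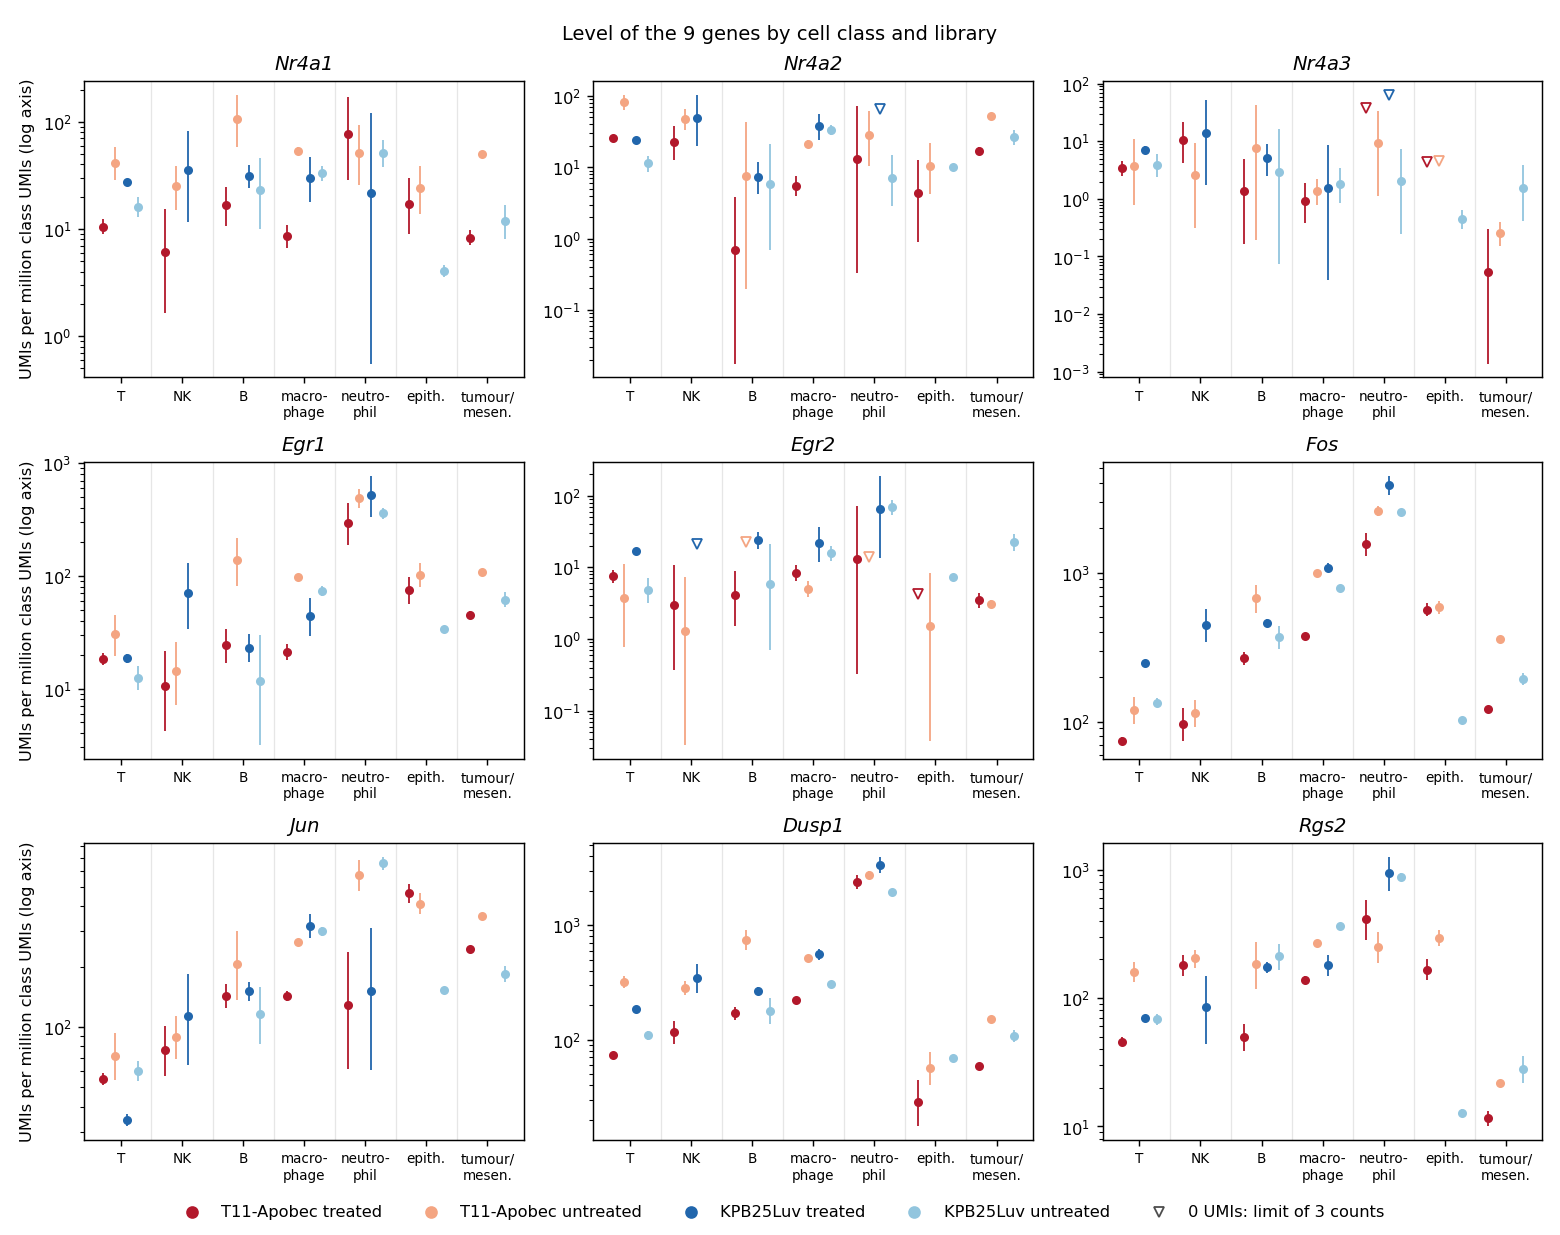
Level of each gene (log axis, CPM) in 7 cell classes, with 1 point per library and class, vertical lines for the exact Poisson interval, and open triangles at the limit that 0 UMIs allow (3 counts). Neutrophils hold the highest points for Fos, Dusp1 and Egr1, while Nr4a3 falls to 0.0537 CPM in tumour/mesenchymal cells of treated T11-Apobec.

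Lymphocytes, which carry antigen receptors in the case of T and B cells, were compared with the cells around them. T, NK and B cells were summed and set against the sum of the other classed cells in each library. A gene was called where the ratio passed 1.5-fold with a counting interval clear of a log2 ratio of 0. Over all features, 23.7% and 17.7% were called higher in lymphocytes of treated and untreated T11-Apobec, and 21.2% and 17.9% in treated and untreated KPB25Luv. For lower calls the shares were 35.6% in treated and 24.8% in untreated T11-Apobec, and 33.5% in treated and 33.8% in untreated KPB25Luv. Against that background 3 genes had the same call in 4 of 4 libraries: Nr4a3 was higher, and Jun and Egr1 were lower.

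Nr4a3 was at 3.53 and 3.56 CPM in lymphocytes of treated and untreated T11-Apobec, against 0.288 and 0.476 CPM in the other cells. These are levels per UMI of the class: of the UMIs themselves, lymphocytes held 6 against 43 in other cells of untreated T11-Apobec, and 24 against 49 in untreated KPB25Luv. Its log2 ratios, lymphocytes over other cells, were 3.54 (2.54 to 4.89) and 3.0 (1.38 to 4.14) in treated and untreated T11-Apobec and 0.90 (0.16 to 1.85) and 2.71 (1.93 to 3.43) in treated and untreated KPB25Luv. The lowest Nr4a3 ratios over 12 alternatives were 2.81, 1.16, 0.66 and 1.46 in the same order. Jun, the AP-1 subunit that pairs with Fos, had ratios of -1.83 and -1.93 in treated and untreated T11-Apobec and -2.76 and -1.42 in treated and untreated KPB25Luv. Thus Nr4a3 and Jun lay on opposite sides in every library. Egr1 had ratios of -1.08, -1.75, -0.95 and -1.75 in the same order. Fos was lower in lymphocytes in 3 libraries (-1.20, -1.48 and -0.95) and at -0.31, not called, in untreated KPB25Luv, a value that was -1.22 after thinning each cell to 1000 UMIs and -1.82 with each cell weighted equally.

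The other genes depended on the library. Nr4a1, the Nr4a member used as a reporter of antigen receptor signals in mice, was higher in lymphocytes of treated and untreated KPB25Luv (1.61 and 1.15) but at 0.34 and -0.34 in treated and untreated T11-Apobec. After thinning the KPB25Luv values of Nr4a1 were 0.42 and 0.13 in treated and untreated tumours, and with equal weights 0.68 and -0.027. Nr4a2 was higher in lymphocytes of both treated libraries (0.83 in each) and at 0.37 and -0.0097 in untreated T11-Apobec and untreated KPB25Luv; after thinning the treated values were 0.15 in T11-Apobec and 0.25 in KPB25Luv. Egr2 was higher in lymphocytes of treated KPB25Luv (1.54) and lower in those of untreated KPB25Luv (-0.89). Those Egr2 values were 0.46 and -2.10 after thinning and 0.053 and -1.79 with equal weights. Rgs2, a brake on G protein signalling, was higher in lymphocytes of untreated T11-Apobec (1.68) and untreated KPB25Luv (0.69). After thinning the untreated KPB25Luv value of Rgs2 was -0.45, and with equal weights -1.05. Dusp1 was higher in lymphocytes of untreated T11-Apobec (0.68), a value that was -0.074 after thinning.

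**Figure D2:**
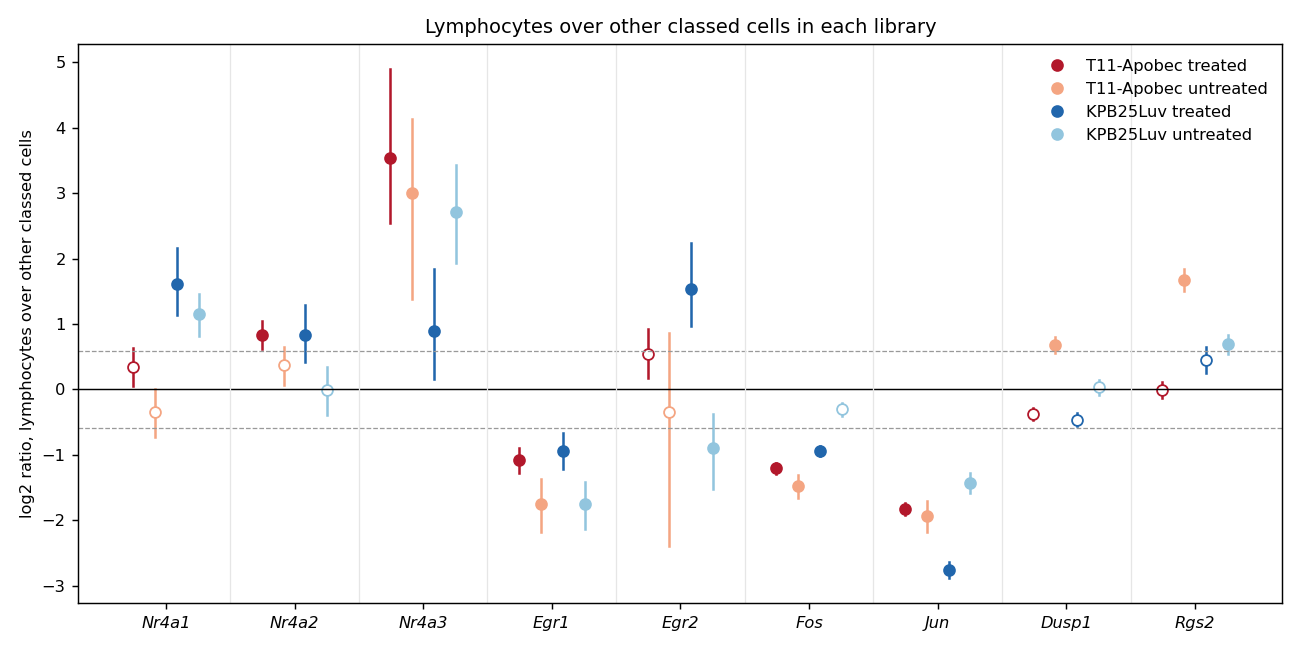
Log2 ratio of lymphocytes (T, NK and B cells) over other classed cells for each gene, 1 point per library with its counting interval, filled where called, and dashed lines at 1.5-fold. Nr4a3 lies above 0, and Jun and Egr1 lie below 0, in all 4 libraries.

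The other cells differed between libraries: tumour/mesenchymal cells were 716 of 1725 in treated and 5529 of 8888 in untreated T11-Apobec, and epithelial cells were 2820 of 4541 in untreated KPB25Luv. In treated KPB25Luv 49 epithelial cells gave 1466395 UMIs, 57 plasma cells 994829, and 129 macrophages and monocytes 637218. Plasma cells were counted among the other cells, not with the B cells. Those of treated KPB25Luv held Nr4a1 and Egr2 at 3.02 CPM each and Nr4a2 at 0. Set against macrophages and monocytes alone, T cells were lower for Fos, Jun, Dusp1 and Rgs2 in 4 of 4 libraries. The T cell over macrophage/monocyte log2 ratios of Fos were -2.35 and -3.05 in treated and untreated T11-Apobec and -2.12 and -2.55 in treated and untreated KPB25Luv. Over all features the shares called lower in this contrast were 23.1% and 15.2% in treated and untreated T11-Apobec, and 16.1% and 22.2% in treated and untreated KPB25Luv. The shares called higher were 30.2%, 18.4%, 23.4% and 21.2% in the same order. Nr4a2 was higher in T cells than in macrophages and monocytes of T11-Apobec (2.23 and 1.97, treated and untreated) and lower in those of KPB25Luv (-0.70 and -1.56). Nr4a3 was called higher in T cells in treated T11-Apobec alone (1.78), with ratios of 1.66, 1.58 and 1.06 in untreated T11-Apobec, treated KPB25Luv and untreated KPB25Luv that were not called.

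Within T cells the genes were not spread evenly over subsets. Dusp1 was higher in Foxp3 T cells (regulatory T cells by their defining factor) than in CD8 T cells in each of the 3 libraries with 50 cells of both, by log2 ratios of 1.58 in treated T11-Apobec and of 1.27 and 1.66 in treated and untreated KPB25Luv. The shares of all features called higher there were 10.2%, 10.5% and 10.9%. Nr4a2 was lower in Foxp3 than in CD8 T cells of treated T11-Apobec (-1.71) and treated KPB25Luv (-2.04), where 3.97% and 5.54% of features were called lower. In untreated KPB25Luv that Nr4a2 ratio was 0.45 (-1.65 to 1.79), not called. Nr4a1 went the other way in treated T11-Apobec, at 34.0 CPM in Foxp3 T cells and 3.93 CPM in CD8 T cells (log2 ratio 3.13, interval 2.23 to 3.96). In treated and untreated KPB25Luv that ratio was 0.48 and 1.41, not called in either. CD4 T cells without Foxp3 UMIs were higher than CD8 T cells for Fos (0.78, 0.64 and 0.59) and Dusp1 (1.28, 1.34 and 0.95) in the same 3 libraries, where 11.6%, 8.66% and 8.08% of features were higher. In treated T11-Apobec 6 of the 9 genes were higher there, the others being Nr4a1 (2.04), Nr4a2 (0.79), Nr4a3 (1.89) and Egr2 (2.38). In treated KPB25Luv 3 of 9 were, with Egr2 (0.81), and in untreated KPB25Luv 5 of 9, with Nr4a3 (2.62), Egr1 (1.72) and Rgs2 (1.21). Of the 9 genes 0 were lower in treated T11-Apobec (4.52% of features), Nr4a2 was lower in treated KPB25Luv (-1.78; 4.84%), and 0 were lower in untreated KPB25Luv (2.67%).

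The treated over untreated comparison set the genes of each class in tumours after 7 days of antibody therapy beside those of untreated tumours. In T11-Apobec most of the genes were lower in treated tumours in T cells, B cells, macrophages and monocytes, and tumour/mesenchymal cells. In T cells 6 of 9 were called lower and 0 higher, against 5.52% of 11636 tested features called lower and 2.9% called higher. In B cells 5 of the 6 that could be tested were lower and 0 higher (3.02% and 2.59% of features). Macrophages and monocytes had 7 of 9 lower and Egr2 higher (10.5% of features lower and 7.89% higher), and tumour/mesenchymal cells had 6 of 9 lower and 0 higher (7.26% and 7.75%). The median log2 ratio of the 9 genes was -0.74 in T cells, -1.23 in macrophages and monocytes and -1.39 in tumour/mesenchymal cells, against medians over all tested features of -0.08, -0.09 and -0.05.

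Nr4a1 in T cells stood at 10.5 CPM in treated and 41.6 CPM in untreated T11-Apobec, a log2 ratio of -2.0 (-2.54 to -1.39). In B cells it was at 16.6 and 107 CPM, in macrophages and monocytes at 8.55 and 53.4 CPM and in tumour/mesenchymal cells at 8.26 and 50.04 CPM, treated before untreated. Treated levels were thus below untreated ones in each of these classes, with log2 ratios of -2.71, -2.63 and -2.59. NK cells gave -1.91 (-4.06 to -0.46), from 4 UMIs in treated and 19 in untreated T11-Apobec, where 3 of the 7 tested were lower and 0 higher (5.56% and 8.13% of features).

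Nr4a2 was lower in T cells (-1.67), macrophages and monocytes (-1.93) and tumour/mesenchymal cells (-1.63). Its NK cell ratio of -1.03 was not called after thinning to 1000 UMIs per cell, at -0.50. Nr4a3 was called in none of the T11-Apobec classes; its T cell ratio of -0.36 had an interval of -1.78 to 2.18, from 48 UMIs in treated and 3 in untreated cells. A change of Nr4a3 within that interval was not detectable at this depth.

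Egr1, a zinc finger factor downstream of MAP kinases, was at 24.2 CPM in treated and 138 CPM in untreated T11-Apobec B cells, and at 21.2 and 97.8 CPM in treated and untreated macrophages and monocytes. Those differences were -2.53 (-3.37 to -1.60) and -2.20 (-2.45 to -1.96) on the log2 scale. In T cells the Egr1 ratio was -0.74 (-1.32 to -0.05), kept its call in 7 of 11 alternatives and was -0.01 after thinning. Egr2 was higher in macrophages and monocytes, at 8.29 CPM treated and 5.00 CPM untreated (0.73, interval 0.19 to 1.27), and 0.32 and uncalled after thinning.

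Fos was lower in T cells at 74.0 CPM treated against 120 CPM untreated (-0.70), in B cells (-1.34), in macrophages and monocytes (-1.40) and in tumour/mesenchymal cells (-1.58). The T cell value of Fos was -0.26 and not called after thinning. Jun moved less, with -0.40 in T cells, -0.55 in B cells, -0.55 in tumour/mesenchymal cells and a called -0.89 in macrophages and monocytes. Dusp1 was further below 0 in T cells (-2.12) and B cells (-2.14) than in macrophages and monocytes (-1.23). In T cells Dusp1 was at 73.5 CPM in treated and 319 CPM in untreated T11-Apobec, 4.35-fold lower. Rgs2 in T cells was at 45.8 and 160 CPM in treated and untreated T11-Apobec (-1.81, interval -2.08 to -1.52), and its ratios were -0.94 in macrophages and monocytes and -0.91 in tumour/mesenchymal cells.

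The T cell and macrophage/monocyte ratios of T11-Apobec were compared gene by gene with a Poisson interval for their difference. The share of all features with a difference clear of 0 was not computed, and their median ratios were -0.08 and -0.09. The difference, T cells minus macrophages and monocytes, was clear of 0 and below it for 2 of 9 genes, Dusp1 (-0.90, interval -1.11 to -0.68) and Rgs2 (-0.87, interval -1.16 to -0.58). It was clear of 0 and above it for 3 genes, Egr1 (1.46), Fos (0.70) and Jun (0.49), whose ratios were further below 0 in macrophages and monocytes. For Nr4a1 and Nr4a2 the differences were 0.63 (-0.02 to 1.29) and 0.25 (-0.35 to 0.86), so a difference between the classes was not detectable for them. With CD8 T cells in place of all T cells the differences of Dusp1 (-1.02), Egr1 (2.08), Fos (0.84) and Jun (1.01) were again clear of 0, while that of Rgs2 was 0.13 (-0.44 to 0.69).

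Other values moved with this comparison. Untreated T11-Apobec T cells were shallower, 103 CPM of their UMIs came from tumour/mesenchymal markers against 18.6 CPM in treated T cells, and CD8 T cells made up 1535 of 3078 treated and 151 of 414 untreated T cells. Of the 8 tumour/mesenchymal markers, 8 had UMIs in treated and 7 in untreated T cells, the neomycin resistance transgene being at 0 in the untreated ones. Tumour/mesenchymal cells themselves held 2268 and 3133 CPM of those markers in treated and untreated T11-Apobec. Within CD8 T cells Nr4a1 was at 3.93 and 24.6 CPM (-2.72), Nr4a2 at 25.0 and 108 CPM (-2.13) and Dusp1 at 44.5 and 210 CPM (-2.24), treated before untreated. CD8 T cells had 4 of 9 genes lower and 0 higher (4.13% and 2.71% of features), Rgs2 being the other, at -0.82. The part of depth, free RNA and subset make-up in the values was not tested beyond the thinned and CD8 values given.

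In KPB25Luv T cells 6 of 9 genes were higher in treated tumours and 1 was lower, against 11.4% of features higher and 12.9% lower. In CD8 T cells 8 of 9 were higher and 1 lower, against 12.6% and 10.7% of features, with a median log2 ratio of 1.07 against 0.08 over all tested features. In B cells 1 of 9 was higher and 0 lower (5.94% and 6.21% of features). In macrophages and monocytes 1 of 9 was higher and 2 were lower (9.29% and 14.7%), with a median over all features of -0.19.

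Nr4a1 in CD8 T cells stood at 23.8 CPM in treated and 9.19 CPM in untreated KPB25Luv (1.35, interval 0.82 to 1.97). Nr4a2 was at 34.5 and 10.7 CPM (1.67, interval 1.19 to 2.23) and Nr4a3 at 7.18 and 2.76 CPM (1.31, interval 0.38 to 2.56), treated before untreated. All 3 Nr4a genes were thus higher in CD8 T cells, by 2.55-fold, 3.18-fold and 2.48-fold. In all T cells together the log2 ratios were 0.76, 1.06 and 0.80, of which that of Nr4a2 was 0.37 and not called after thinning. The Nr4a2 ratio in CD8 T cells was 0.94 and not called after thinning.

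Egr2, an Egr factor induced by calcineurin and NFAT signals in T cells, was at 13.8 CPM in treated and 3.68 CPM in untreated CD8 T cells (1.86, interval 1.06 to 2.89). In B cells Egr2 was at 24.0 and 5.78 CPM (1.74, interval 0.13 to 5.13) from 52 UMIs in treated and 2 in untreated KPB25Luv, a call that held in 9 of 11 alternatives. Egr1 was at 18.97 and 8.88 CPM in CD8 T cells (1.07) and was lower in macrophages and monocytes, at 43.9 CPM treated and 73.0 CPM untreated (-0.71, interval -1.34 to -0.18, and uncalled in 2 of 11 alternatives). In KPB25Luv neutrophils Egr1 was at 521 CPM treated and 359 CPM untreated (0.57, not called). Egr2 in macrophages and monocytes was at 0.52 and not called.

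Fos was at 249 CPM in treated and 134 CPM in untreated KPB25Luv T cells (0.89, interval 0.78 to 1.01), while Jun was lower, at 34.4 and 60.4 CPM (-0.81, interval -1.0 to -0.62). The AP-1 partners thus moved apart in T cells. The Jun call was lost after thinning (-0.31) and with equal weights. In CD8 T cells Jun was at -0.68, with the same call in 7 of 11 alternatives. Dusp1 was higher in T cells (0.75) and in macrophages and monocytes (557 CPM treated and 305 CPM untreated, 0.87). Rgs2 was at 70.3 and 68.1 CPM in T cells (0.04), higher in CD8 T cells (0.66) and lower in macrophages and monocytes (180 and 360 CPM, -0.99). In CD8 T cells the calls of Egr1 and Rgs2 were each kept in 10 and that of Dusp1 in 8 of 11 alternatives.

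In CD4 T cells without Foxp3 UMIs 2 of 9 genes, Fos (0.98) and Dusp1 (0.99), were higher and Jun (-1.14) was lower, where 6.59% of features were higher and 5.77% lower. In Foxp3 T cells Fos was higher (0.82; 4.63% of features) and Jun lower (-1.0; 5.75%). None of the Nr4a genes was called in these subsets of 123 and 64 untreated cells, and a difference between subsets in these ratios was not tested.

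In KPB25Luv the difference of ratios, T cells minus macrophages and monocytes, was clear of 0 and above it for 6 of 9 genes. These were Rgs2 (1.04, interval 0.72 to 1.35), Egr1 (1.28), Egr2 (1.24), Nr4a1 (0.87), Nr4a2 (0.87) and Fos (0.43). For Jun it was clear of 0 and below it (-0.91, interval -1.19 to -0.63), and for Dusp1 it was -0.11 (-0.32 to 0.09). With CD8 T cells in place of all T cells the difference was 1.46 for Nr4a1 and 1.48 for Nr4a2, and that of Dusp1 was -0.27 (-0.53 to -0.0030). The treated macrophage/monocyte class held 129 cells, against 656 untreated. The share of all features with such a difference was not computed. Their median log2 ratio was 0.04 in T cells and -0.19 in macrophages and monocytes, so a typical feature also stood higher in T cells.

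Beside these values, epithelial markers made up 13.2 CPM in treated and 454 CPM in untreated KPB25Luv T cells, and neutrophil markers 20.3 and 134 CPM, with 8 of 9 epithelial and 8 of 8 neutrophil markers detected in both. Neutrophils, the class highest in Fos and Dusp1, held 28381 CPM of their own markers in treated and 50992 CPM in untreated KPB25Luv. The part of free RNA in the T cell ratios was not tested. CD8 T cells were 1833 of 4047 treated and 591 of 1194 untreated T cells.

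Neutrophils were few in 3 libraries and shallow in all, with medians of 675 to 970 UMIs. In T11-Apobec (51 treated and 188 untreated cells) Egr1 (-0.69), Fos (-0.74) and Jun (-2.09) were lower and Rgs2 was higher (0.74), against 5.5% of features lower and 8.8% higher. In KPB25Luv (52 treated and 753 untreated cells) Fos (0.60) and Dusp1 (0.79) were higher and Jun (-2.01) was lower, against 5.13% of features higher and 6.61% lower. After thinning, which left 17 and 31 neutrophils in treated and untreated T11-Apobec and 14 and 344 in treated and untreated KPB25Luv, Rgs2 in T11-Apobec was -0.41, and Fos and Dusp1 in KPB25Luv were -0.18 and -0.65. The Rgs2 call was kept in 6 of 11 alternatives and the Fos call in 4 of 10. The median over all tested features was 0.12 in T11-Apobec and -0.35 in KPB25Luv neutrophils. In T11-Apobec epithelial cells Dusp1 (-0.97) and Rgs2 (-0.82) were lower and 0 genes higher (8.24% and 9.24% of features).

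Lists chosen with earlier results of these data known were read beside the 9 genes. Of 19 other immediate early genes, 9 were lower and 0 higher in T11-Apobec T cells (median -0.62; 5.52% of all features lower and 2.9% higher), 7 were lower and 0 higher in macrophages and monocytes (10.5% and 7.89%), and 8 were lower and 0 higher in tumour/mesenchymal cells (7.26% and 7.75%). In NK cells 0 of 18 tested were lower and 4 higher (5.56% and 8.13%). The most abundant of them in T cells, Junb, an AP-1 subunit, was at 446 CPM treated and 904 CPM untreated (-1.02); Klf2, a factor of resting T cells, was at 0.52 and Nfkbia, the NF-kappa-B inhibitor, at -0.64. Of 11 heat shock genes, 0 were higher and 1, Hspa1a, was lower in T11-Apobec T cells (20.6 and 41.6 CPM, -1.04; median of the list 0.03), a share near that of all features. The abundant chaperone genes Hspa8 (0.37), Hsp90ab1 (-0.04) and Hsp90aa1 (-0.30) were not called. Macrophages and monocytes had 3 of 11 heat shock genes lower and 0 higher, among them Hspa1a at 44.6 CPM treated and 178 CPM untreated (-1.99).

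In KPB25Luv T cells the heat shock list moved too: 6 of 11 genes were higher and 0 lower (median 0.62; 11.4% of features higher and 12.9% lower), led in abundance by Hspa8 (3745 and 2003 CPM, 0.90), with Hsp90aa1 at 0.66 and Hsp90ab1 at 0.02. Hsph1, named after its values were seen, was at 111 CPM treated and 26.6 CPM untreated (2.06). In KPB25Luv B cells 6 of the 8 tested heat shock genes were higher and 0 lower (median 1.03; 5.94% and 6.21%), and in macrophages and monocytes 3 were higher and 3 lower of 10 (9.29% and 14.7%). Of the 19 other immediate early genes 2 were higher and 3 lower in KPB25Luv T cells, near the 11.4% and 12.9% of all features. Among them Junb was at 0.57, Klf2 at 0.38 and Nfkbia at 0.15. In KPB25Luv macrophages and monocytes 5 of the 19 were higher and 1 lower (9.29% and 14.7% of features). In neutrophils 11 were higher and 1 lower (median 0.85; 5.13% and 6.61% of features), the treated neutrophils numbering 52.

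Of 19 genes that antigen receptor signals induce, 6 were lower and 0 higher in T11-Apobec T cells (median -0.69; 5.52% and 2.9% of features). In CD8 T cells 4 were lower and 1 higher of 19 (4.13% and 2.71% of features). In NK cells 0 were lower and 4 higher of 13 (5.56% and 8.13% of features). In B cells 0 were lower and 2 higher of 12 (3.02% and 2.59% of features). Macrophages and monocytes of T11-Apobec had 5 lower and 6 higher (10.5% and 7.89% of features). In T cells of T11-Apobec the chemokine genes Ccl4 (388 CPM treated and 997 CPM untreated, -1.36) and Xcl1 (150 and 555 CPM, -1.89) were lower, and Ccl3 was at -0.23. In KPB25Luv T cells 10 of the 19 were higher and 2 lower (median 0.63; 11.4% and 12.9% of features). In CD8 T cells 12 were higher and 1 lower (median 1.12, against 12.6% and 10.7% of features). In the same CD8 T cells 4 of the 9 tested heat shock genes were higher and 0 lower (median 0.56). Of the 19 other immediate early genes there, 5 were higher and 3 lower (median 0.28). Genes of the antigen receptor list were also called outside lymphocytes. In KPB25Luv neutrophils 5 of 13 tested were higher and 0 lower (5.13% and 6.61% of features; median 1.33, against -0.35 over all features). In macrophages and monocytes of KPB25Luv 4 of 13 were higher and 2 lower (median 0.28; 9.29% and 14.7% of features). Ccl4 was at 335 and 36.1 CPM in treated and untreated KPB25Luv CD8 T cells (3.21), the activation marker gene Cd69 was at 0.49, and Xcl1 was lower (-0.94). Ifng, named after its values were seen, was at 54.2 and 8.27 CPM (2.69). Of the 10 DUSP and RGS relatives, 3 were lower and 1 higher in T11-Apobec T cells (5.52% and 2.9% of features). There Dusp2 was at -0.20, Rgs1 at -0.99 and Rgs10 at -0.43. In KPB25Luv T cells 4 of 9 tested were higher and 0 lower (11.4% and 12.9% of features), with Rgs1 at 0.73. Dusp10, named after its values were seen, was higher in both (2.04 in T11-Apobec and 1.48 in KPB25Luv).

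Single cells were compared after thinning each to 1000 UMIs, so that depth was equal. Dusp1 UMIs were found in 9.23% of T cells in treated and 23.2% in untreated T11-Apobec, and in 19.6% and 12.2% in treated and untreated KPB25Luv. Unthinned, Dusp1 was in 23.4% of treated and 35.7% of untreated T11-Apobec T cells, and in 47.05% of treated and 30.9% of untreated KPB25Luv T cells. Epithelial cells, a low class for this gene, held a Dusp1 UMI in 6.90% of 58 treated and 2.78% of 72 untreated T11-Apobec cells. In untreated KPB25Luv 7.03% of epithelial cells did, where the unthinned share was 62.4% at a median of 22732 UMIs per cell. The part of free RNA in these shares was not tested. Fos was found in 25.2% of T cells in treated and 13.5% in untreated KPB25Luv, beside 9.65% of epithelial cells in untreated KPB25Luv.

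Most T cells of treated T11-Apobec (70.9%) held no UMI of any of the 9 genes, against 49.7% in untreated T11-Apobec. In KPB25Luv the shares were 51.3% in treated and 65.5% in untreated tumours. Neutrophils of untreated KPB25Luv were the other extreme, with a median of 7 UMIs of the 9 genes per 1000 and 61.6% of cells holding at least 3 of the genes. Among macrophages and monocytes of T11-Apobec 7.32% of treated and 21.2% of untreated cells held at least 3.

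Whether the Nr4a genes kept company with Egr genes or with Fos and Jun was read within classes. In T cells Nr4a UMIs were more frequent in cells with an Egr1 or Egr2 UMI: 11.1% (4.92% to 20.7%) against 2.73% (2.17% to 3.39%) of cells without in treated T11-Apobec, and 14.4% (9.02% to 21.3%) against 5.39% (4.69% to 6.16%) in treated KPB25Luv. Among CD8 T cells of treated KPB25Luv 13 of 58 cells with an Egr UMI held an Nr4a UMI, 22.4% (12.5% to 35.3%), against 4.92% (3.95% to 6.05%) of the others. The split by Fos or Jun gave little separation in T cells, with 3.02% against 2.92% in treated T11-Apobec, 6.99% against 5.21% in treated KPB25Luv and 5.68% against 5.43% in CD8 T cells of treated KPB25Luv, and the intervals overlapped in each. The Egr split overlapped too in CD8 T cells of treated T11-Apobec (6.25% against 2.61%) and in T cells of untreated KPB25Luv (7.14% against 2.18%).

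In other cells of untreated T11-Apobec both splits separated the Nr4a share. In macrophages and monocytes of untreated T11-Apobec, 9.47% (8.04% to 11.1%) of cells with a Fos or Jun UMI held an Nr4a UMI, against 3.57% (2.55% to 4.85%) of those without. In tumour/mesenchymal cells of untreated T11-Apobec the shares were 13.3% (11.97% to 14.6%) and 6.96% (6.06% to 7.94%), and for the Egr split 17.01% and 8.98%. The Egr split gave 12.9% and 6.39% in the macrophages and monocytes. In those of untreated KPB25Luv the intervals overlapped for both splits, at 9.20% and 4.53% for Fos or Jun and 16.3% and 6.32% for Egr. Hspa1a or Hspa1b UMIs did not separate these cells, at 6.45% (3.14% to 11.5%) against 7.04% (6.06% to 8.13%) in macrophages and monocytes of untreated T11-Apobec. Cells of a library share its handling, and these shares describe single libraries.

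**Figure D3:**
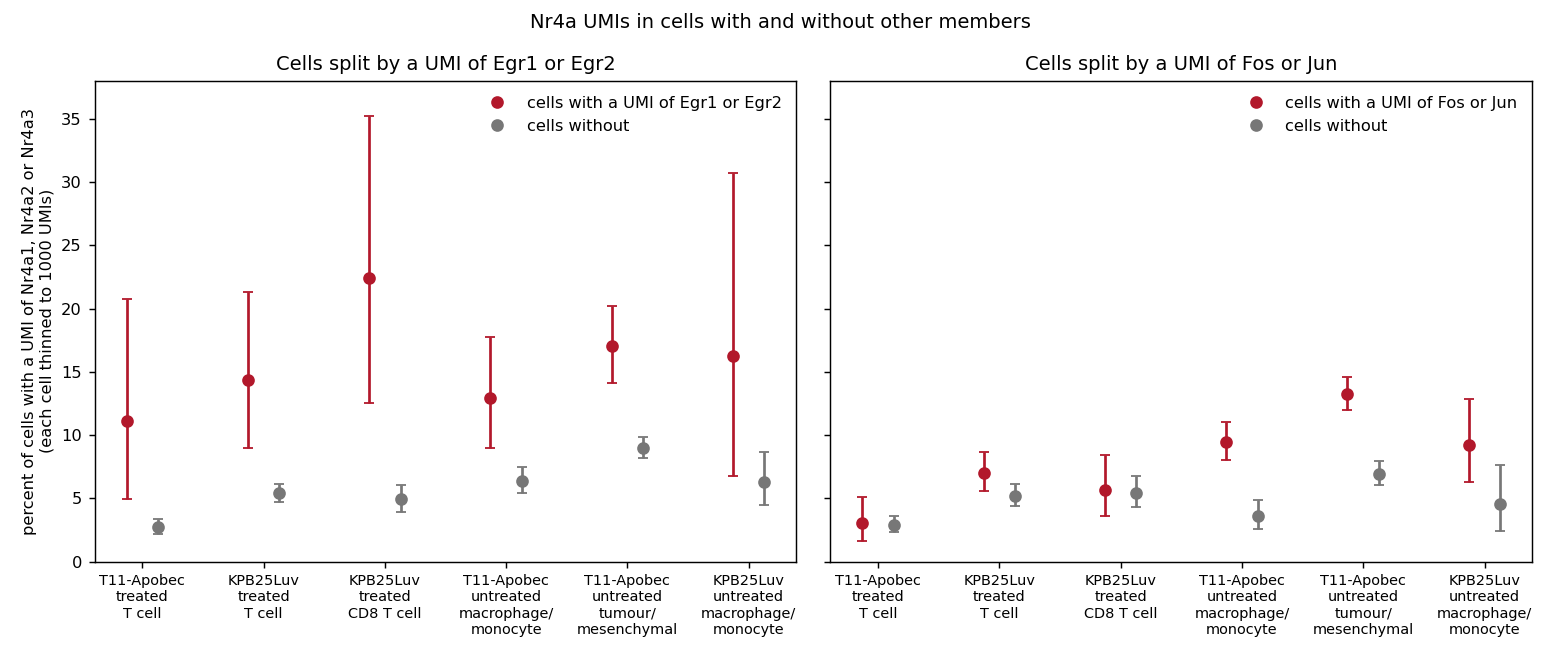
Percent of cells with a UMI of Nr4a1, Nr4a2 or Nr4a3 among cells with (red) and without (grey) a UMI of Egr1 or Egr2 (left) or of Fos or Jun (right), each cell thinned to 1000 UMIs, with exact binomial intervals, for 6 pairs of library and class. The Egr split separates CD8 T cells of treated KPB25Luv (22.4% against 4.92%). The Fos or Jun split separates macrophages and monocytes of untreated T11-Apobec (9.47% against 3.57%). It separates neither those of untreated KPB25Luv nor T cells, which are shown for treated libraries only.

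Across the 30 pairs of class and library with at least 50 cells, the genes fell into looser and tighter company on the log2(CPM + 10) scale. These correlations describe pairs that share libraries and differ in depth. T cells entered as 1 class, without their subsets. Egr1 and Fos had a Pearson correlation of 0.80, Fos and Dusp1 of 0.73 and Nr4a1 and Dusp1 of 0.67. Jun had 0.07 with Dusp1, and Nr4a2 had -0.21 with Fos. Among 12700 genes compared, those nearest to Dusp1 were Snap23 (0.88), Nfkbia (0.86) and Mcl1 (0.86), and those nearest to Fos were Cpeb2 (0.84), Zfp36 (0.83) and Ccr1 (0.83). For Egr1 they were Gcnt2 (0.85), Gadd45a (0.83) and Med7 (0.82), and for Rgs2 Mkrn1 (0.87), Dazap2 (0.81) and Atp6v1d (0.77). For Nr4a1 the nearest gene was Dusp1 itself, followed by Xylt1 (0.67) and Gm17056 (0.66). The nearest to Nr4a2 were S100a10 (0.70), B4galt5 (0.69) and Smyd3 (0.66), to Nr4a3 Gm28875 (0.76), Sec22c (0.74) and Gm19585 (0.74), to Egr2 Gm9733 (0.80), AC139671.1 (0.79) and Ffar2 (0.78), and to Jun Gng12 (0.77), Laptm4a (0.72) and Hist1h4i (0.72).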

How the data were processed

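The authors deposited raw UMI counts per gene and barcode for 4 libraries. The file headers name Cell Ranger 3.0.2, and the submitters' processing notes name the mm10 build. The lowest barcode total was 500 to 503 UMIs. Here, barcodes with fewer than 200 genes (8 to 307 per library) or more than 10% mitochondrial UMIs (228 to 676) were removed.

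Classes were set by raw marker UMIs: at least 3 UMIs over at least 2 markers of a class (5 over 3 for stromal classes) and a 3-fold excess over other classes. Between related classes, such as T and NK cells or epithelial and tumour/mesenchymal cells, any excess was enough. For stromal classes tumour/mesenchymal markers were ignored, and Ly6c2 and Ccr2 did not count against any class. These thresholds were chosen after the marker counts were seen but without the 9 genes. Doublets were treated by leaving out cells that reached a class threshold without the required excess. A doublet caller, Scrublet, was also run once, but its scores were set aside and entered no value. At its own threshold it marked almost no cells in 3 libraries but far more in untreated T11-Apobec, and exact repetition of its scores was in doubt. Doublets in that library, the untreated side of every T11-Apobec treated over untreated ratio, were thus not checked by score. Counts were summed per class and library, with at least 50 cells. Ratios used 0.5 added counts and exact conditional binomial intervals, at least 10 UMIs over both libraries and 1.5-fold; differences of ratios used Poisson variances. Each group was 1 library, so no p-value is given. Named genes were the 9 members, the 3 most abundant of each list, and for each member the 3 most correlated genes. The members and lists were chosen with earlier results of these data known. The ratio was tested on simulated data with known folds. Sums and intervals used scipy 1.17.1 with pandas 2.3.3 and numpy 2.4.6 under Python 3.11.15, and plots matplotlib 3.10.9. Alternatives are given at the end.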

Additional observations from a re-analysis of the deposited data

Results flagged for a closer look

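Several genes were called in opposite directions in the 2 tumour models. Each model has 1 library per group, so the difference was not tested, and the intervals given for it cover counting error only. Nr4a1 in T cells had a treated over untreated log2 ratio of 0.76 in KPB25Luv and -2.0 in T11-Apobec, and in CD8 T cells of 1.35 and -2.72. Nr4a2 had 1.06 in KPB25Luv and -1.67 in T11-Apobec T cells, and 1.67 and -2.13 in CD8 T cells. Dusp1 had 0.75 in KPB25Luv and -2.12 in T11-Apobec T cells, 0.60 and -2.24 in CD8 T cells, and 0.87 and -1.23 in macrophages and monocytes. Fos had 0.89 in KPB25Luv and -0.70 in T11-Apobec T cells, and 0.60 and -0.74 in neutrophils. After thinning each cell to 1000 UMIs the neutrophil values of Fos were -0.18 and -0.14, neither called. Rgs2 had 0.66 in KPB25Luv and -0.82 in T11-Apobec CD8 T cells.

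The difference of the ratios, KPB25Luv minus T11-Apobec, with its counting interval was 2.76 (2.13 to 3.39) for Nr4a1 and 2.88 (2.64 to 3.11) for Dusp1 in T cells. In macrophages and monocytes it was 2.52 (1.75 to 3.29) for Nr4a1 and 2.09 (1.91 to 2.28) for Dusp1. Strain, tumour line and capture cannot be told apart in this difference.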

How the results depend on the processing

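No paired analysis was possible because each group is 1 library; for the same reason no replicate was left out. The alternative that keeps the highest doublet scores was not run, since doublet scores entered no value. Leaving out the deepest 5% of cells of each class was chosen after seeing the data.

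The counts of genes lower in T11-Apobec T cells (6), CD8 T cells (4), B cells (5), macrophages and monocytes (7) and tumour/mesenchymal cells (6) stayed within 1.5 times under every alternative run. KPB25Luv CD8 T cells had 8 genes higher, which became 5 at 2-fold, and 1 lower, which became 0 after thinning, with equal weights, at 2-fold, without cells holding Hspa1a or Hspa1b UMIs and without the deepest 5%. In KPB25Luv T cells the 6 genes higher became 2 at 2-fold, and the 1 lower became 0 after thinning, with equal weights and at 2-fold. In KPB25Luv B cells the 1 gene higher became 2 with TMM scaling, the stricter gate and equal weights. In KPB25Luv macrophages and monocytes the 1 higher became 2 with equal weights and 0 at 2-fold, and the 2 lower became 1 after thinning, 1 with equal weights and 0 at 2-fold.

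The counts that follow are of pairs of a ratio and an alternative. For treated over untreated, 1338 pairs kept the ratio within the counting interval, 83 moved and 3 reversed. The reversals were all after thinning in neutrophils: Rgs2 in T11-Apobec at -0.41, and Fos at -0.18 and Dusp1 at -0.65 in KPB25Luv. The alternatives of 2-fold and of at least 30 UMIs alter calls only, so their 122 and 109 pairs could not move. Under thinning 61 pairs kept their value, 41 moved and 3 reversed. For lymphocytes over other cells 346 pairs kept their value, 82 moved and 4 reversed. The 2-fold and 30-UMI alternatives gave 36 each of those kept, which again could not move. Dusp1 in untreated T11-Apobec reversed, at -0.074 after thinning. In untreated KPB25Luv Nr4a1 reversed at -0.027 with equal weights, and Rgs2 at -0.45 after thinning and -1.05 with equal weights. With a pseudocount of 1 CPM, fewer than 2 of the 3 nearest genes were shared for 4 of 9 members. The cause of these changes was not tested. Nr4a3 rested on 3 UMIs in untreated T11-Apobec T cells and on at most 2 in the neutrophils of any library.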
